A study of Mus musculus with 12 samples.

Results

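The genes described are 33 genes of the endoplasmic reticulum (ER) chaperone and unfolded protein response machinery, among 56941 genes counted by RNA-seq in mouse bone-marrow-derived macrophages. The members were found by matching the gene identifiers of the count tables to mouse symbols, and all 33 matched 1 identifier each. Macrophages of C57Bl/6J mice were wild-type (WT) or lacked miR-210 (KO), a microRNA induced by low oxygen. The KO and WT mice came from matings of heterozygous animals, and the deletion had been made by crossing mice with floxed miR-210 to Gata-1 Cre mice, so that it is present in the animal and not in macrophages alone. Monocytes were enriched from bone marrow with beads that removed other cells, and cultured for 7 days in medium with 20% serum and 30% conditioned medium of L929 cells, a source of the macrophage growth factor M-CSF. The resulting resting macrophages are called M0. M2 macrophages received 20 ng/mL of the cytokine IL-4 for a further 72 hours. The M0 groups received none, and the study states that control wells were otherwise kept in the same way. There were 3 libraries in each of the 4 groups WT M0, KO M0, WT M2 and KO M2, made from rRNA-depleted RNA and holding between 7930525 and 10167695 counts. The sources used here do not say that the libraries of a group came from separate animals, so p-values measure only the spread between these libraries. Each group also carries its own batch name in the labels, and the effects of batch and of group cannot be told apart.

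Proteins bound for secretion or for membranes enter the ER through the SEC61 translocon, are folded there by chaperones and by disulfide isomerases, and are sent back to the cytosol for destruction when they fail to fold. An excess of unfolded protein is sensed by 3 transmembrane proteins, IRE1α (gene Ern1), ATF6 and PERK (gene Eif2ak3). IRE1α splices the Xbp1 mRNA, cleaved ATF6 moves to the nucleus, PERK slows translation, and together these branches raise the chaperones and the degradation machinery. Macrophages that are stimulated to secrete proteins place a load on this system. Splicing of Xbp1, cleavage of ATF6 and phosphorylation of PERK cannot be read from counts per gene, so the values below concern amounts of mRNA only.

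The deleted gene was examined first. Mir210, on chromosome 7 from 140801297 to 140801406 (GRCm39), was covered by 1, 3 and 5 counts in WT M0 and by 1, 2 and 1 counts in WT M2. It had 0 counts in all 6 KO libraries. A count of 0 allows up to 3 counts in a library, so the WT counts were too low for a fold change. That limit reflects counting error alone. The labels were not contradicted by any library. All 8 macrophage markers were counted in every library, where they summed to between 62338 and 99425 counts, with the lysozyme gene Lyz2 the most abundant. Of the genes taken as a response to IL-4, Retnla had 0 counts in every M0 library and 2161 to 4493 in the M2 libraries. Chil3 had at most 3 counts in an M0 library and 11673 to 17127 in the M2 libraries, and Mrc1, the mannose receptor gene, had 11929 to 19850 and 20347 to 27968.

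Short DNA elements are known to connect these genes to ATF6 and XBP1, and the promoters are shown here because many members share them. Promoter sequences of RefSeq (GRCm38.p6, 250 bases before to 50 bases after the transcription start) were matched by symbol for 27 of the 33 members. Sec61a1, Tram1, Derl1, Manf, Hyou1 and Atf6 had no entry. Both strands were searched for the ER stress response element (ERSE), spelled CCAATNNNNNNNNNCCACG, for its second form (ERSE-II), spelled ATTGGNCCACG, and for the unfolded protein response element (UPRE), spelled TGACGTGG. The search allowed no mismatch, and no member held both forms of the ERSE. The ERSE was found in 9 of the 27 members, in 0.137% of the 27025 genes with an entry and in 0.119% of all 32851 promoters. The ERSE-II was found in 2 members, in 0.0444% of these genes and in 0.0365% of all promoters. For the UPRE these were 0 members, 0.714% of the genes and 0.676% of all promoters. The ERSE is defined on genes of this kind, so its share among the members is a description.

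The windows below read along the strand of the gene, with the fixed letters of the element in capitals and 20 bases on each side. CCAAT and CCACG in capitals mark an ERSE that runs with the gene, and CGTGG and ATTGG one that runs against it. Hsp90b1 has 2 elements.
Hspa5, chr2:34772005-34772063, plus strand: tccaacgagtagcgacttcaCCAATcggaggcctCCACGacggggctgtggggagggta
Hsp90b1, chr10:86705513-86705571, minus strand: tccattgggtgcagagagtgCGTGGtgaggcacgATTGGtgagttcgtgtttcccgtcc
Hsp90b1, chr10:86705618-86705676, minus strand: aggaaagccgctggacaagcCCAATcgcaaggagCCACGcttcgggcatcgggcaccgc
Calr, chr8:84847055-84847113, minus strand: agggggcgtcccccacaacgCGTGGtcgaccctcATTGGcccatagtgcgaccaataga
Canx, chr11:50325780-50325838, minus strand: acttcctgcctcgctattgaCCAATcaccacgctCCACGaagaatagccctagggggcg
Dnajc3, chr14:118937807-118937865, plus strand: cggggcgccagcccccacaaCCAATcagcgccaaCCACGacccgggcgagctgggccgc
Creld2, chr15:88819500-88819558, plus strand: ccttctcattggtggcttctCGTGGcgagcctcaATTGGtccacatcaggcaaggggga
Pdia6, chr12:17266471-17266529, plus strand: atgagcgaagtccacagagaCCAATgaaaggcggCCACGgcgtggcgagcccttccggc
Syvn1, chr19:6046512-6046570, plus strand: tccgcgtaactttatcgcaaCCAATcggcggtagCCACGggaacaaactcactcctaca
Derl3, chr10:75893222-75893280, plus strand: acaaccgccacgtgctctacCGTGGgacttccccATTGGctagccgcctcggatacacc
The last pair holds the ERSE-II, in which ATTGG and CCACG are 1 base apart.
Herpud1, chr8:94386357-94386407, plus strand: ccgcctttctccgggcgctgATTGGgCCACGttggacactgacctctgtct
Dnajb11, chr16:22857832-22857882, plus strand: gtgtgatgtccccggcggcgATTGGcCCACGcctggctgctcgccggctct

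In Hspa5 the ERSE began 65 bases before the transcription start, and in Syvn1, the nearest of the ERSE matches, 44 bases before it. The matches of Pdia6, Dnajc3, Creld2, Canx, Derl3 and Calr began 98, 105, 126, 145, 156 and 162 bases before the start. The matches of Hsp90b1 began 107 and 212 bases before it. The ERSE-II of Herpud1 began 52 bases before the start and that of Dnajb11 began 7 bases after it.

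The level of each member was set on a scale per length, as TPM, the counts divided by the summed exon length of the gene and scaled to the same sum in every library. The 3 most abundant were Calr, the lectin chaperone calreticulin, P4hb, a protein disulfide isomerase, and Hspa5, the Hsp70 chaperone BiP, with means of 524, 482 and 476 TPM over the 12 libraries. Their order differed between M0 and M2. In WT M0 P4hb had 410.5 ± 25.2 TPM (SD, n = 3), Hspa5 404 ± 9.62 and Calr 337 ± 30.4, so that Calr stood below a pair that did not differ beyond its spread. In WT M2 Calr had 676 ± 30.7 TPM and stood above Hspa5 (525 ± 25.4) and P4hb (515 ± 18.5). In KO M0 the levels were 484 ± 23.7 for P4hb, 437 ± 18.4 for Hspa5 and 403 ± 45.4 for Calr, and in KO M2 Calr, Hspa5 and P4hb had 679 ± 64.5, 540.0 ± 28.7 and 519.5 ± 10.9 TPM. Sdf2l1, a component of BiP complexes, was next by the mean over the 12 libraries, with 352 TPM. At the other end stood Sec61g, a small subunit of the translocon, with 16.9 TPM, Manf, a secreted ER protein, with 22.3 TPM, and Syvn1, the ubiquitin ligase HRD1, with 23.4 TPM. The order holds for the summed exon length only. Manf and Sdf2l1 had means of 398 and 423 counts before scaling in WT M0, with lengths of 12163 and 1113 bases. The sensors and Xbp1 lay in the middle and lower part of the order, with 124 TPM for Atf6, 120.2 TPM for Xbp1, 65.4 TPM for Ern1 and 30.4 TPM for Eif2ak3. Derl3, a degradation factor of secretory tissues, had 1 to 6 counts in every library and a mean of 0.64 TPM, and it did not pass the filter on low counts. Its counts were 2, 2 and 1 in WT M0, 1, 3 and 1 in KO M0, 4, 2 and 6 in WT M2 and 3, 2 and 2 in KO M2. The other 32 members passed the filter on low counts.

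**Figure D1:**
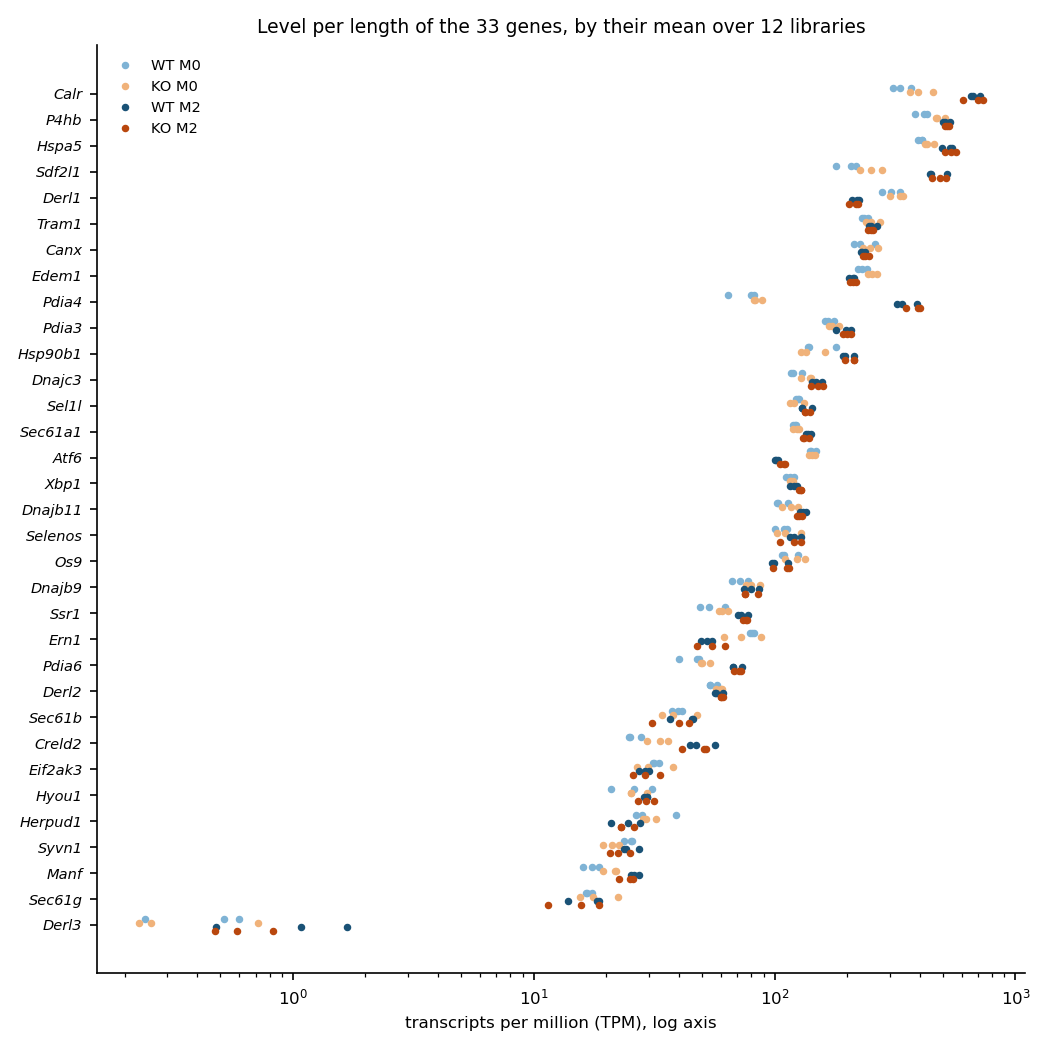
Level of the 33 members in TPM on a log axis, ordered by the mean over the 12 libraries, with a point for each library coloured by group. Calr, P4hb and Hspa5 stand at the top, with the M2 points of Calr above its M0 points, and Derl3 lies far below the other 32 members.

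The share of all counts that fell on the members was 0.490% to 0.514% in the WT M0 libraries and 0.535% to 0.568% in the KO M0 libraries. In the M2 libraries it was 0.603% to 0.647% for WT and 0.605% to 0.655% for KO. Every M2 library lay above every M0 library, and every KO M0 library lay above every WT M0 library, while the M2 libraries of both genotypes overlapped.

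The first comparison asked how the members differed between M2 and M0 macrophages of WT mice. Of the 32 members tested, 15 were higher and 3 were lower in M2. A call needed an adjusted p under 0.05 (edgeR quasi-likelihood test, Benjamini-Hochberg adjustment over all genes tested) together with a change of more than 1.2-fold. Protein-coding genes with an average normalized count over 10 were eligible. By the same rule 23.6% of 11135 eligible genes were higher and 21.8% were lower. The median log2 fold change of the members was 0.25, against 0.01 over the eligible genes. Disulfide isomerases and chaperones made up most of the higher members, and sensors and a degradation factor made up the lower ones. Groups without overlap were common. All WT M2 libraries lay above all WT M0 libraries for 21 of 32 members and for 28.3% of 14266 genes tested. They lay below for 3 members and for 28.7% of genes.

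**Figure D2:**
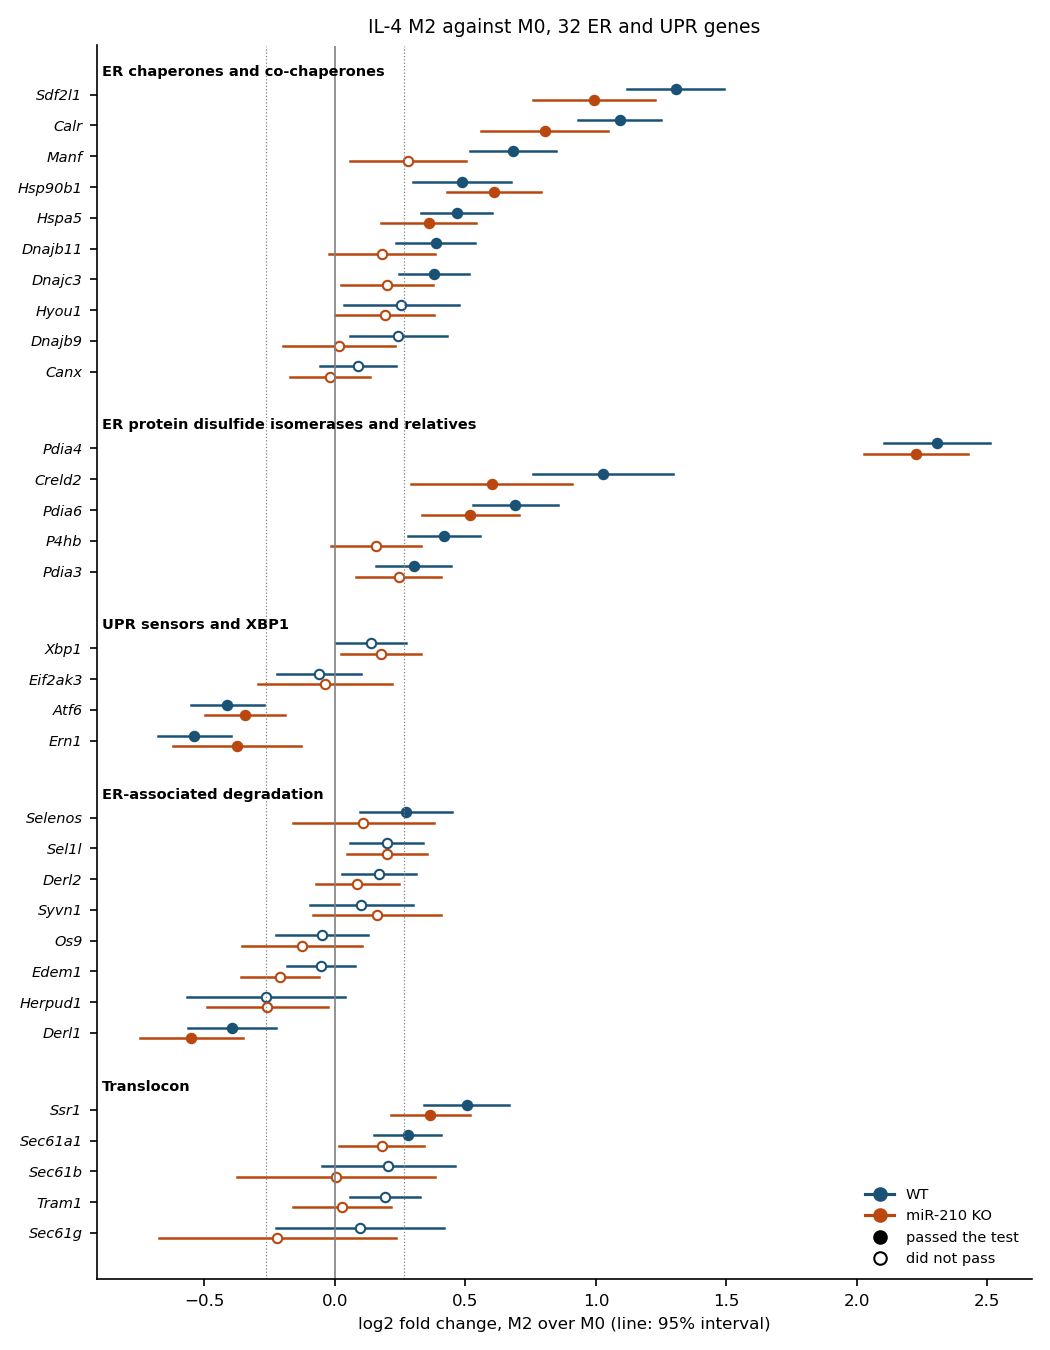
The log2 fold change of M2 against M0 with its 95% confidence interval for the 32 members tested, grouped by role, in WT and in KO macrophages. Filled points passed the test, and Pdia4 stands far to the right of the rest in both genotypes.

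Of the disulfide isomerases and their relatives, 5 of 5 rose in WT M2 macrophages, where 23.6% of eligible genes were higher. Pdia4 (ENSMUSG00000025823, chromosome 6 from 47770077 to 47790462 of GRCm39, minus strand), an isomerase with several thioredoxin-like domains, had 876, 1058 and 1074 normalized counts in the WT M0 libraries. Normalized counts are counts scaled to a common library size. In the WT M2 libraries it had 4735, 5514 and 4589, and no M2 library came near an M0 library. The difference was 4.94-fold (log2 fold change 2.31, SE 0.09, adjusted p = 3.6e-10, edgeR). Creld2, an ER protein with disulfide exchange activity, rose by a log2 fold change of 1.03. Pdia6 rose by 0.69 and P4hb by 0.42 on the same scale. Pdia3, the partner of calreticulin and calnexin, rose by 0.30, and this call was lost when WT M2 library 2 was left out, where its log2 fold change was 0.26.

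Of the chaperones and co-chaperones, 7 of 10 rose in WT M2 macrophages and none fell, where 23.6% of eligible genes were higher and 21.8% lower. Sdf2l1 (ENSMUSG00000022769, chromosome 16 from 16948002 to 16950252, minus strand) had 385, 414 and 454 normalized counts in the WT M0 libraries, against 974, 1141 and 975 in those of WT M2. Every M2 library had over 900 normalized counts and every M0 library under 500. Its log2 fold change was 1.31 (SE 0.09, adjusted p = 3.6e-08, edgeR). Calr (ENSMUSG00000003814, chromosome 8 from 85567946 to 85573667, minus strand) had 2259, 2275 and 2639 normalized counts in the WT M0 libraries, against 4872, 5326 and 5019 in those of WT M2. The groups were far apart, with a log2 fold change of 1.09 (SE 0.07). Hspa5 (ENSMUSG00000026864, chromosome 2 from 34661982 to 34668880, plus strand) encodes the chaperone that holds the sensors inactive. It had 4178, 4085 and 4245 normalized counts in the WT M0 libraries, against 5386, 5845 and 5983 in those of WT M2. The groups did not overlap, and the rise was 1.38-fold (log2 fold change 0.47, SE 0.06, adjusted p = 3.97e-05, edgeR). The other chaperones that rose were Manf by 0.68, Hsp90b1, the ER form of Hsp90, by 0.49, and the J-domain co-chaperones Dnajb11 by 0.39 and Dnajc3 by 0.38 on the log2 scale.

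The other 3 chaperones did not pass. Hyou1, an Hsp110-like exchange factor for BiP, differed by 0.25 on the log2 scale (SE 0.10, adjusted p = 0.054, edgeR), and it passed when WT M0 library 2 was left out, with 0.37. Dnajb9, a co-chaperone of BiP, had 0.24 with an adjusted p of 0.032 (edgeR), under the limit on the fold change. Canx, the membrane-bound relative of calreticulin, had 0.09 (95% interval -0.06 to 0.23).

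The sensors went the other way from the chaperones or did not pass. Ern1 (ENSMUSG00000020715, chromosome 11 from 106283818 to 106378686, minus strand) had 1554, 1489 and 1495 normalized counts in WT M0, against 1033, 980.0 and 1099.8 in WT M2. The groups did not overlap, and Ern1 fell, with a log2 fold change of -0.54 (SE 0.06, adjusted p = 1.3e-05, edgeR). Atf6 (ENSMUSG00000026663, chromosome 1 from 170532026 to 170696208, minus strand) had 2798, 2481 and 2572 in WT M0, against 1972, 1960.1 and 1944 in WT M2. It fell as well, with a log2 fold change of -0.41 (SE 0.06). Eif2ak3 (ENSMUSG00000031668, chromosome 6 from 70821461 to 70882235, plus strand) had 379, 378 and 375 in WT M0, against 359, 377 and 346 in WT M2. These groups overlapped, and the log2 fold change was -0.06 (95% interval -0.22 to 0.10). Xbp1 (ENSMUSG00000020484, chromosome 11 from 5470606 to 5483027, plus strand) had 1542, 1489 and 1453 in WT M0, against 1574, 1634 and 1706 in WT M2. All M2 libraries lay above all M0 libraries, but by little, and the log2 fold change of 0.14 (SE 0.06) did not pass (adjusted p = 0.083, edgeR).

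Of the 8 degradation factors tested, 1 rose and 1 fell in WT, no more than among all eligible genes (23.6% higher and 21.8% lower). Derl1 (ENSMUSG00000022365, chromosome 15 from 57731819 to 57755879, minus strand), a membrane protein of the channel that returns misfolded proteins to the cytosol, had 3189, 2748 and 3402 normalized counts in WT M0, against 2256, 2379 and 2438 in WT M2. The M2 libraries were all lower, and the log2 fold change was -0.39 (SE 0.08). Selenos, a selenoprotein of the same machinery, rose by 0.27 on the log2 scale. That call stood just past the limit and was lost under DESeq2 and upper quartile scaling, with all 12 libraries in the fit, and without WT M0 library 1, WT M0 library 2 or WT M2 library 2, where its log2 fold change was between 0.23 and 0.27. Syvn1 and its adaptor Sel1l, the lectin Os9, the mannosidase-like Edem1, Derl2 and Herpud1, a scaffold of the ligase, did not pass, with log2 fold changes from -0.26 (Herpud1) to 0.20 (Sel1l).

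Of the 5 translocon genes, 2 rose in WT, where 23.6% of eligible genes were higher. Ssr1, a subunit of the translocon-associated complex, rose by 0.50 (SE 0.08) on the log2 scale. Sec61a1, the channel itself, rose by 0.28 (SE 0.06), and this call was lost under upper quartile scaling and without WT M0 library 2 or WT M2 library 3, with log2 fold changes of 0.26. Tram1, Sec61b and Sec61g had log2 fold changes of 0.19, 0.20 and 0.10 and did not pass.

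In KO macrophages the same comparison gave 8 higher and 3 lower members of 32, where 18.5% of 11117 eligible genes were higher and 18.1% were lower by the same rule. The median log2 fold change of the members was 0.17 (0.11 without KO M0 library 2), against -0.01 over the eligible genes. All 8 higher and all 3 lower members were also called in that direction in WT, and 7 members were called higher in WT and not in KO. Those 7 were Manf, Dnajb11, Dnajc3, Pdia3, P4hb, Selenos and Sec61a1. A call in one genotype and not in the other does not show a difference between them, and the test of that difference is given further on. All KO M2 libraries lay above all KO M0 libraries for 15 of 32 members and for 23.6% of 14331 genes tested. They lay below for 4 members and for 22.7% of genes.

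Pdia4 had 1233, 1065 and 1137 normalized counts in KO M0 and 5707, 5553 and 4818 in KO M2, a 4.68-fold rise (log2 fold change 2.23, SE 0.09, adjusted p = 1.9e-09, edgeR). As in WT, no member rose more. Sdf2l1 had 601, 451 and 540.0 in KO M0 and 1073, 1127 and 958 in KO M2, with a log2 fold change of 0.99 (SE 0.11). Calr had 3337, 2485 and 2898 in KO M0 and 5527, 5256 and 4438 in KO M2, with a log2 fold change of 0.80 (SE 0.11). Neither pair of groups overlapped, and the KO M0 libraries 1 and 3 of these genes stood above all WT M0 libraries. Hspa5 had 4911, 4200.5 and 4633 in KO M0 and 6254, 5941 and 5439 in KO M2. It rose by 0.36 (SE 0.08, adjusted p = 0.0046, edgeR) on the log2 scale without overlap. The others that rose were Hsp90b1 by 0.61, Creld2 by 0.60, Pdia6 by 0.52 and Ssr1 by 0.37 on the same scale.

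The lower members in KO were again Derl1, Ern1 and Atf6. Derl1 had 3609.6, 2957 and 3536 normalized counts in KO M0 and 2370.3, 2391 and 2132 in KO M2, and fell by 0.55 (SE 0.09) on the log2 scale. Atf6 had 2709, 2582 and 2635 in KO M0 and 2038, 2123 and 2079.7 in KO M2, and fell by 0.34 (SE 0.07). Both fell without overlap of the groups. Ern1 had 1197, 1593 and 1419 in KO M0 and 1096, 952 and 1199.9 in KO M2, so that its lowest M0 library and its highest M2 library crossed. Its log2 fold change was -0.38 (SE 0.11, adjusted p = 0.021, edgeR), and the call was lost without KO M0 library 2, KO M2 library 1 or KO M2 library 2, where it was between -0.28 and -0.38. Xbp1 had 1549, 1484 and 1567 in KO M0 and 1769, 1721 and 1704 in KO M2. The groups did not overlap, but the log2 fold change of 0.18 did not pass (adjusted p = 0.074, edgeR). Eif2ak3 had 365, 429.7 and 329.6 in KO M0 and 325, 363 and 408 in KO M2, with overlap of the groups.

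**Figure D3:**
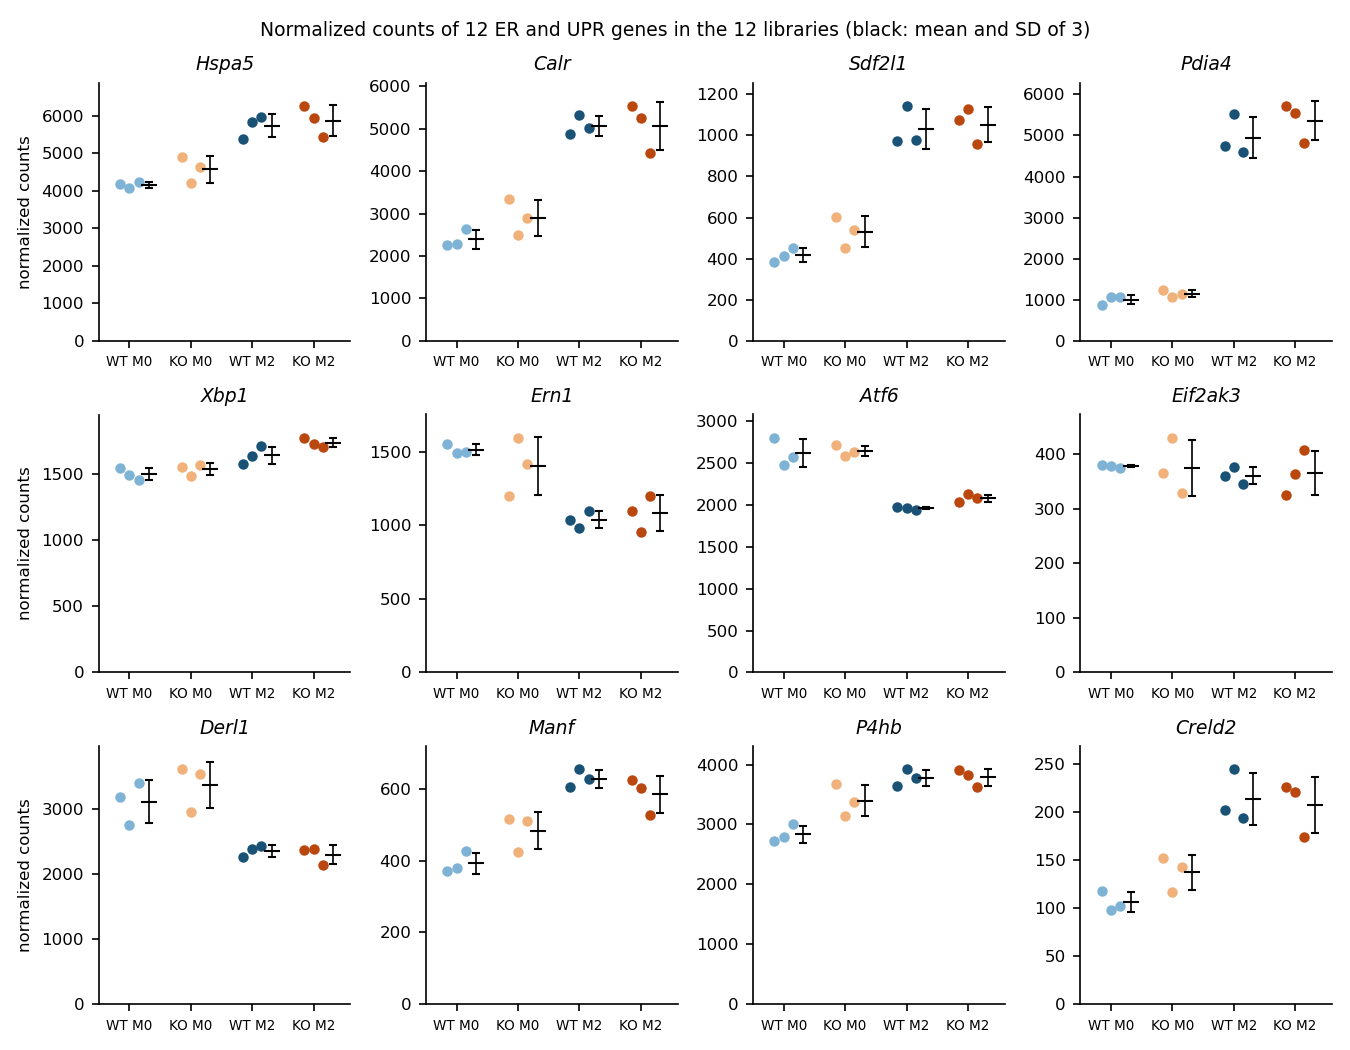
Normalized counts of 12 members in each of the 12 libraries, by group, with the mean and SD of 3 libraries in black and a separate axis from 0 for each gene. Pdia4, Sdf2l1 and Calr show M2 libraries well above M0 libraries in both genotypes, and the KO and WT points of M2 lie at similar heights.

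Members with and without an element in their promoter were set side by side as a description. Of the 11 members with an ERSE or ERSE-II in the window, 10 were tested, and 7 of them were higher and 0 lower in WT M2 macrophages, with a median log2 fold change of 0.43. Of the 16 members with an entry and no such element, 6 were higher and 1 was lower, with a median of 0.20. In KO macrophages 5 of 10 and 3 of 16 were higher, and 0 and 1 were lower. Over all eligible genes 23.6% were higher and 21.8% lower in WT, and 18.5% and 18.1% in KO. The 3 of 16 in KO were near the share of all eligible genes. The 6 members with no entry are in neither set. Among them are Atf6 and Derl1, which fell in both genotypes, and Manf and Sec61a1, which rose in WT. Pdia4 and Sdf2l1, with the largest rises, had no match to these spellings in the window, which says only that these letters are not there.

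Other values moved with IL-4 treatment besides the members. The mitochondrial genes took 0.894% to 0.968% of the counts in M0 libraries and 1.02% to 1.19% in M2 libraries, and their part in the results was not tested. In bulk RNA fewer cells of a type and less RNA per cell cannot be told apart. Plasma cells are rich in these ER genes, and of the 8 B-cell and plasma-cell markers Ms4a1 and Mzb1 had 0 counts in all 12 libraries. The list summed to 95 to 204 counts in M0 and 77 to 116 in M2, mostly from Cd79b and Ighm. Ighm, which is not eligible for a call because it is not classed as protein-coding, had a log2 fold change of -0.94 in WT (adjusted p = 0.0065, edgeR). The 6 dendritic-cell markers summed to 4 to 13 counts in M0 and 89 to 157 in M2, nearly all from Zbtb46. The 5 mast-cell and basophil markers summed to 0 to 2 counts in M0 and 23 to 40 in M2, nearly all from Gata2, while Fcer1a and Prss34 had 0 counts in all libraries. The part of these 2 lists in the results was not tested. The 9 neutrophil markers summed to 9 to 24 counts in WT M0, 24 to 56 in WT M2, 12 to 20 in KO M0 and 9 to 20 in KO M2, and their leading gene S100a8 was higher in WT M2 (log2 fold change 2.04, edgeR). The 6 T-cell markers summed to 29 to 48 counts in WT M0, 12 to 21 in WT M2, 16 to 33 in KO M0 and 9 to 12 in KO M2, nearly all from Cd4, which was lower in M2 by 1.33 in WT and 1.03 in KO on the log2 scale. The 6 erythroid markers summed to at most 44 counts, led by Hbb-bs. The 7 fibroblast and stroma markers, led by Col1a2, summed to 9 to 25 counts in M0 and 5 to 10 in M2. The 5 megakaryocyte markers summed to 2734 to 5246 counts in M0 and 2918 to 4113 in M2, nearly all from Pf4, and Ppbp of that list was higher in WT M2 (log2 fold change 1.75). The macrophage markers moved as well, and summed to 9434 to 9589 CPM in WT M0, 7586 to 7811 in WT M2, 9106 to 10376 in KO M0 and 7806 to 8320 in KO M2. Of these, Fcgr1, Mertk, Cd14 and Lyz2 were lower in WT M2, with log2 fold changes of -2.97, -1.33, -0.51 and -0.38, and Itgam was higher by 0.62. In KO M2 the same 4 were lower, with -2.59, -0.90, -0.83 and -0.37, and so was Adgre1 with -0.28. In WT Adgre1 had -0.25 (adjusted p = 0.00997, edgeR), under the limit on the fold change. The part of these lists in the results was not tested either.

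The second question was whether the members differed between KO and WT macrophages. In M0 macrophages 0 of 32 members passed in either direction by edgeR, and 0 by DESeq2. Genome-wide, 0.22% of 14089 genes were higher and 0.241% were lower in KO by edgeR (31 and 34 genes), and DESeq2 called 105 higher and 114 lower. At an unadjusted p under 0.05 there were 6 members, where 10.0% of all genes tested had such a p. Those 6 were P4hb, Sdf2l1, Manf, Calr, Creld2 and Dnajc3, with adjusted p-values between 0.29 and 0.45 (edgeR). Each had a log2 fold change above 0. Over all 32 members 26 had a log2 fold change above 0, the median was 0.13, and the values ran from -0.22 (Syvn1) to 0.37 (Creld2). Over all genes tested the median was 0.0005.

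The values of P4hb, Manf and Creld2, chosen after they were seen, are given as examples. P4hb had 2723, 2792 and 2999 normalized counts in WT M0 and 3674, 3144 and 3377 in KO M0, and the groups did not overlap (log2 fold change 0.26, SE 0.09). In M2 it had 3639, 3918 and 3767 in WT and 3907, 3827.5 and 3626 in KO, with overlap of the groups. Manf had 372, 381 and 426 in WT M0 and 517, 424 and 510.2 in KO M0, where KO library 2 lay within the WT range. Its M2 values were 605, 655 and 627 in WT and 625, 604 and 528 in KO. Creld2 had 118, 98.3 and 102 in WT M0 and 152, 116 and 143 in KO M0, again with KO library 2 inside the WT range. Its M2 values were 202, 245 and 194 in WT and 227, 221 and 174 in KO.

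In M0 the 2 genotypes did not overlap for 7 members. KO lay above WT for 6 of 32 (Dnajc3, Pdia3, P4hb, Edem1, Derl2 and Ssr1), where 7.15% of all genes tested did so, and below for 1 (Syvn1), where 7.28% did. KO M0 library 2 was the lowest of its group for 19 of 32 members. Without it the median log2 fold change of the members was 0.19, and without KO M0 library 1 it was 0.088. Every 95% interval of the 32 members lay within 1 of 0 on the log2 scale, and 6 lay within 1.2-fold of no difference. The widest bounds were -0.45 for Syvn1 and 0.70 for Creld2.

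**Figure D4:**
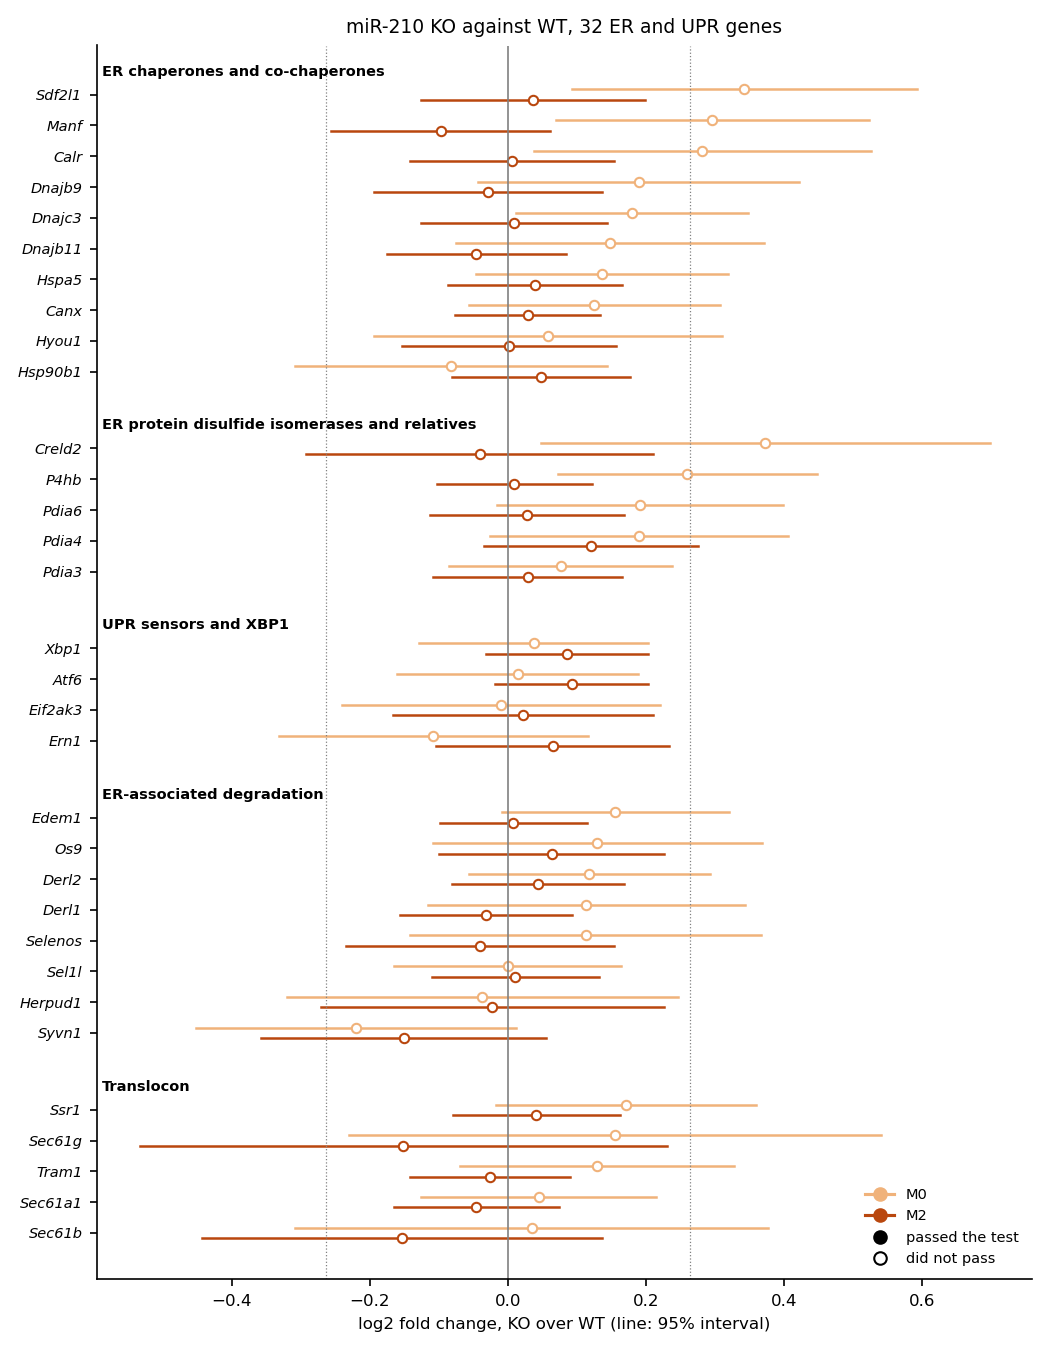
The log2 fold change of KO against WT with its 95% confidence interval for the 32 members tested, grouped by role, in M0 and in M2 macrophages. No point passed the test, 26 of the M0 points lie above 0, and the M2 points lie close to 0 with shorter intervals.

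In M2 macrophages 0 of 32 members passed by edgeR, where 0.408% of 13980 genes were higher and 0.572% lower in KO, and 0 passed by DESeq2, which called 58 genes higher and 82 lower. No member had an unadjusted p under 0.05, and the lowest adjusted p was 0.58, for Atf6. The log2 fold changes ran from -0.15 to 0.12 with a median of 0.009, and 20 of 32 were above 0. WT M2 library 1 and KO M2 library 3 were the lowest of their groups for 21 and 22 of 32 members. WT M2 library 2 and KO M2 library 1 were the highest of theirs for 19 members each. Without WT M2 library 1 the median was -0.015 with 13 above 0, and without KO M2 library 1 it was -0.005 with 14 above 0. For 26 of 32 members the whole 95% interval lay within 1.2-fold of no difference. Pdia4 had a log2 fold change of 0.12 (95% interval -0.04 to 0.28), Hspa5 of 0.04 (-0.09 to 0.17) and Xbp1 of 0.09 (-0.03 to 0.20). The genotypes did not overlap for 1 member, Atf6, with KO above WT, where 7.52% of all genes tested lay above and 8.53% below.

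The difference between genotypes in the response to IL-4 was tested as an interaction over all 12 libraries. By edgeR 0 of 32 members passed, as did 0 of 14825 genes in all, so that the background is 0% in both directions. DESeq2 passed 0 members, 20 genes higher and 52 lower genome-wide. At an unadjusted p under 0.05 there were 4 members, against 8.95% of all genes tested. Manf had an interaction of -0.40 on the log2 scale (SE 0.13, adjusted p = 0.32, edgeR), which is the KO response minus the WT response. P4hb had -0.26, Creld2 -0.42 and Sdf2l1 -0.31, with adjusted p-values of 0.42, 0.55 and 0.55 (edgeR). The interaction was below 0 for 24 of 32 members, with a median of -0.12, against -0.002 over all genes tested. This median shares the M0 libraries with the comparison of KO and WT M0 and adds nothing independent to it. Every 95% interval of an interaction lay within 1 of 0 on the log2 scale, and 4 lay within 1.2-fold of no difference.

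The wider pathway was followed through 140 other genes in 7 lists. Of 131 tested in WT, 46 were higher and 13 lower in M2 macrophages, and of 130 tested in KO, 29 were higher and 11 lower, against the genome-wide shares given above. Without KO M2 library 2 the KO count of higher genes was 19, and without KO M2 library 1 the count of lower genes was 6. Among 28 other ER folding factors tested in WT, 10 rose and 2 fell. The prolyl isomerase Fkbp11 rose by 1.91 on the log2 scale and the thioredoxin-related Tmx4 by 0.64, and Fkbp7 fell by 0.54 and Tmx2 by 0.36. Fkbp11 was low, with 4.6 to 6.56 normalized counts in WT M0 and 16.8 to 25.8 in WT M2. In KO 9 of 27 rose, with Fkbp11 at 1.85 and Fkbp9 at 0.64, and 1 fell, the oxidase gene Ero1a, by 0.37. Among 25 other degradation genes 2 rose in WT, the ligase Marchf6 by 0.57 and Edem2 by 0.45, and 5 fell, led by the ligase Rnf5 by 0.70 and Svip, an inhibitor of the degradation complex, by 0.55. In KO 1 rose, Marchf6 by 0.59, and 4 fell, led by Svip by 0.77 and Aup1 by 0.47.

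Of 21 other translocation and signal peptide genes, 11 rose and 3 fell in WT, where Bcap31, an ER cargo receptor, rose by 0.77 and Ssr2, a partner of Ssr1, by 0.58, and Srp68 fell by 0.41 and Sec61a2 by 0.39 on the log2 scale. In KO 5 of 21 rose and none fell, with Bcap31 at 0.69 and Ssr2 at 0.40. Over all eligible genes 23.6% were higher and 21.8% lower in WT, and 18.5% and 18.1% in KO. The 5 of 21 that rose in KO were near that share. Of 13 other regulators of the unfolded protein response, 6 rose and 1 fell in WT. Wfs1, the gene of wolframin, rose by 2.20 and Creb3l1, an ER-anchored transcription factor, by 1.34, and Map3k5, the kinase ASK1, fell by 1.21. In KO 4 rose and 1 fell, with Wfs1 at 1.75, Creb3l1 at 0.60 and Map3k5 at -1.28.

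**Figure D5:**
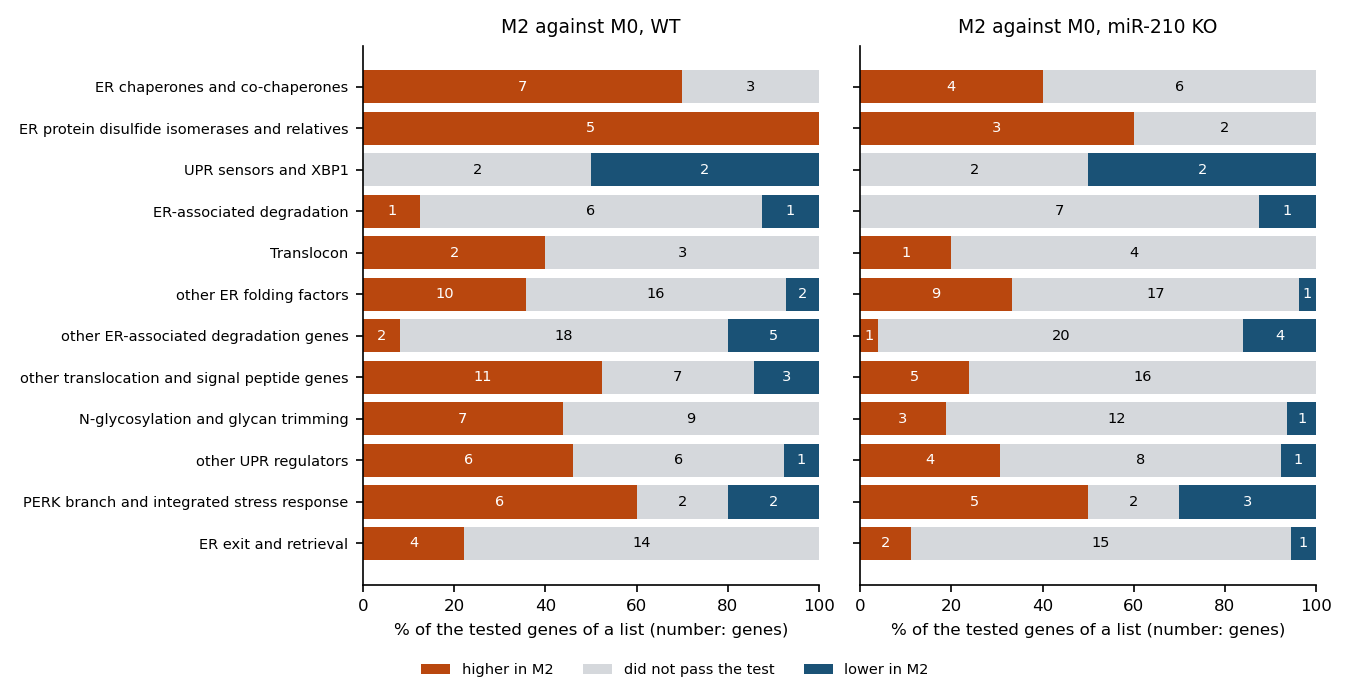
Share of the tested genes of each list that were higher, lower or not called in M2 against M0, in WT and in KO macrophages, with the number of genes in each part of a bar. The disulfide isomerases stand at 5 of 5 higher in WT, and the sensors have no higher gene in either genotype. Over all eligible genes 23.6% were higher in WT and 18.5% in KO.

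The PERK branch and integrated stress response list of 10 genes held the largest single rise among the 7 lists in each genotype. This branch acts through the transcription factor ATF4, which raises genes of amino acid supply and of redox defence. In WT M2 macrophages 6 rose and 2 fell. Over all eligible genes 23.6% were higher and 21.8% lower in WT, and 18.5% and 18.1% in KO. Psat1, an enzyme of serine synthesis, rose by 4.39 on the log2 scale and Chac1, which degrades glutathione, by 3.18, and Ddit3, the transcription factor CHOP, fell by 0.68 and Ppp1r15a, which restores translation, by 0.44. In KO 5 rose and 3 fell, with Psat1 at 3.22, Atf3, a transcription factor, at 1.79, the pseudokinase gene Trib3 at -0.93 and Ddit3 at -0.91. The Ddit3 symbol is carried by 2 identifiers, and ENSMUSG00000025408 was used.

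Between KO and WT M2 macrophages 3 of the 130 other pathway genes tested were lower and 0 higher by edgeR, beside the genome-wide 0.572% and 0.408%. All 3 were in the list of the PERK branch and integrated stress response, which is not limited to targets of PERK. Psat1, named although it lies outside the rule for named genes, had 945, 950.4 and 1301 normalized counts in WT M2 and 693, 649 and 765 in KO M2. Its log2 fold change was -0.60 (SE 0.11, adjusted p = 0.011, edgeR). The groups did not overlap, but the call was lost without KO M2 library 1 (log2 fold change -0.59, adjusted p = 0.064) or KO M2 library 2 (-0.54, adjusted p = 0.13) in the edgeR test. Trib3 had 216, 244 and 318 normalized counts in WT M2 and 172, 148 and 168 in KO M2, with a log2 fold change of -0.67 (SE 0.13, adjusted p = 0.020, edgeR). Chac1 had 112, 120.4 and 174 in WT M2 and 81.1, 49.3 and 80.6 in KO M2, with a log2 fold change of -0.95 (SE 0.20, adjusted p = 0.029, edgeR). For all 3 genes the genotypes did not overlap and WT M2 library 3 was the highest. The calls of Trib3 and Chac1 were lost without WT M2 library 3, KO M2 library 1 or KO M2 library 2, where the log2 fold changes were between -0.50 and -0.71 for Trib3 and between -0.73 and -1.07 for Chac1. They were also lost with all 12 libraries in the fit (adjusted p = 0.34 and 0.16, edgeR), where Psat1 passed. All 10 genes of the list were below 0, with a median of -0.21, and 7 had an unadjusted p under 0.05, as had 10.7% of all genes tested. The list was drawn up with earlier results of these data known, so its direction is not independent evidence.

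In M0 macrophages 0 of 130 other pathway genes passed between KO and WT by edgeR or by DESeq2, and 7 had an unadjusted p under 0.05, where 10.0% of all genes tested did. In the interaction 0 of 132 passed by edgeR and 18 had an unadjusted p under 0.05, where 8.95% of all genes tested did. The lowest adjusted p was 0.095, for Psat1, with an interaction of -1.17 (SE 0.23), and DESeq2 passed Psat1 alone among these genes (adjusted p = 0.0020). By edgeR it passed without WT M0 library 2 (adjusted p = 0.034) or KO M0 library 2 (adjusted p = 0.048). Psat1 had 43.8, 59.0 and 48.8 normalized counts in WT M0 and 86.8, 73.3 and 66.8 in KO M0, so that KO lay above WT in M0 and below it in M2.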

How the data were processed

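The authors trimmed the reads with Trimmomatic, removed duplicate reads with Picard, aligned with STAR to GRCm39 and made strand-specific counts per gene with featureCounts. They deposited these counts without normalization in 4 tables, 1 for each pair of groups, and the columns of a library were identical between tables. The deposited normalized values and the study's DESeq2 results were not used here. Library numbers are those of the column names and are not tied to samples.

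Of the 56941 identifiers, 56323 were paired with a symbol and coordinates in GENCODE (GRCm39). Tests used edgeR 4.0.16 in R 4.3.3 (limma 3.58.1): filterByExpr, TMM, quasi-likelihood fits on the 6 libraries of a pair or, for the interaction, all 12, with Benjamini-Hochberg adjustment over all genes tested. Normalized counts are counts divided by the TMM-adjusted library size and multiplied by the mean total. TPM used summed exon length. DESeq2 1.42.0, other scalings, filters and fold limits, the library number as a block and leaving out each library were alternatives. Figures were drawn with Python 3.11.15 and matplotlib 3.10.9. On simulated data with 200 genes set to differ 2-fold, edgeR recovered 83.5% over 14046 genes for WT polarization, 85% over 14077 for KO, 82% over 13903 for KO against WT in M0, 88% over 13806 in M2 and 70.5% over 14588 for the interaction. Of the calls made there, 5.11%, 9.57%, 5.20%, 5.38% and 4.73% in that order were genes not changed. The rates hold for 2-fold changes with all other genes left unchanged. Between genotypes the members differed by less, from -0.22 to 0.37 in M0 and from -0.15 to 0.12 in M2 on the log2 scale. Their interactions ran from -0.42 to 0.17. The rates do not say how many differences of these sizes would be found.

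Values in every library are given for Hspa5, Xbp1, Ern1, Atf6 and Eif2ak3 and for the 3 called members with the largest rise and the 3 with the largest fall, and of each other list up to 2 called genes in each direction are named. The members, the lists and the tests were chosen with earlier results of these data known. Some marker genes are not reported here.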

Additional observations from a re-analysis of the deposited data

How the results depend on the processing

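The counts of members called kept within 1.5 times of the reported ones under DESeq2, other size factors, no filter on low counts, no limit on the fold change, all 12 libraries in the fit and all genes eligible. Asking for a 2-fold change left 4 higher and 0 lower members in WT and 1 higher and 0 lower in KO, because most members that passed moved by less. Of the other pathway genes it left 8 higher and 1 lower in WT, 6 higher and 1 lower in KO, and 0 lower between KO and WT M2. With each library left out in turn, 13 to 16 members were higher and 3 lower in WT, 8 to 10 higher and 2 to 3 lower in KO, and 0 in every comparison of genotypes and in the interaction. The other pathway genes gave 42 to 49 higher and 11 to 15 lower in WT, 19 to 27 higher and 6 to 16 lower in KO, 0 to 4 lower between KO and WT M2, and 0 to 1 lower in the interaction (Psat1, without WT M0 library 2 or KO M0 library 2). Of the members called, 15 of 18 in WT and 10 of 11 in KO passed under every alternative other than the 2-fold limit. Without KO M2 library 3 Manf (0.34) and Pdia3 (0.27) also passed in KO.

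With no filter on low counts 1 other pathway gene (Ero1a) was higher in KO M0, 5 were lower in KO M2 (with Asns and Wfs1 beside the 3) and 4 were lower in the interaction, where DESeq2 called 1. With all 12 libraries in the fit 1 remained lower in KO M2, Psat1. The cause of these changes was not tested. With the library number as a replicate block, 15 members were higher and 3 lower in WT, 8 higher and 3 lower in KO, and 0 in each other test, while 1 other pathway gene was higher in KO M0 and 5 were lower in KO M2. Same-numbered libraries correlated between -0.25 and 0.31 in their deviations from the group means, and in no comparison did every library correlate best with its own number, so the numbers were not taken to pair the libraries. Ranks per length differed for 4 members when TMM-scaled counts per kilobase were ranked in place of TPM. Both scales divide by the same summed exon length, so ranks under another gene length were not tested. Derl3 was tested with no filter on low counts alone, and did not pass in any comparison by edgeR (lowest adjusted p 0.26).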

Other observations

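The steps of protein handling on either side of ER folding were also counted. N-glycosylation attaches a glycan to new proteins and trims it as they fold, and of 16 such genes tested 7 rose and 0 fell in WT M2 macrophages (edgeR), where 23.6% of eligible genes were higher and 21.8% lower. Tusc3 and Stt3b, both of the oligosaccharyltransferase complex, rose by 1.18 and 0.91 on the log2 scale. In KO 3 of 16 rose, near the 18.5% of eligible genes that did, with Tusc3 at 1.18 and Stt3b at 0.77, and Krtcap2, a small protein of the same complex, fell by 0.48.

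ER exit and retrieval genes carry folded proteins onward, and of 18 tested 4 rose and 0 fell in WT, so the share that rose was near that of all eligible genes. The cargo receptor gene Lman2 rose by 0.40 and the coat gene Sec24b by 0.38 on the log2 scale. In KO 2 of 18 rose, no more than among all eligible genes, Sec24b by 0.47 and Lman2 by 0.30, and the coat gene Sec23a fell by 0.33. The difference between the genotypes in these lists was tested gene by gene as an interaction, and 0 of their genes passed by edgeR or by DESeq2.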
